A study of Mus musculus with 16 samples.

Results

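The response of C2C12 cells to differentiation medium was compared between lines labelled WT and lines labelled MYOD-/- that both carried a vector for MUNC. C2C12 is a mouse myoblast line, labelled as C57BL/6 skeletal muscle of postnatal day 21. The comparison rests on 8 of the 16 libraries of the series, 2 in each of 4 groups. The groups were WT ov MUNC in growth medium (GM, proliferating cells), WT ov MUNC in differentiation medium (DM, differentiating cells, DM3 in the design text), MYOD-/- ov MUNC in GM and MYOD-/- ov MUNC in DM. All 4 groups carried the stably transfected vector coding for the spliced form of MUNC, so none of them is free of it. The MYOD-/- cells were made with CRISPR-Cas9 and screened as single cells before the vector went in, and the sources used here do not state how many clones were used. The other 8 libraries carried an empty vector (EV) in the same genotypes and media and serve only as a reference. The quantity of interest is the interaction, the DM minus GM change of the MYOD-/- labelled lines minus that of the WT-labelled lines, on a log2 scale. A positive interaction means that the change on moving to DM was more positive in the MYOD-/- labelled lines. Nothing in the labels says that replicates 1 and 2 of a group are separate cultures, and the spread behind each p-value may therefore be technical.

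Myoblasts that are moved to low-serum medium leave the cell cycle, switch on Myog and then the genes of the sarcomere, and fuse into multinucleated fibres. MYOD, encoded by Myod1, is a transcription factor that directs this programme by binding E-boxes, and MUNC is a noncoding RNA from the enhancer region upstream of Myod1. The interferon response, which gives the largest group of genes below, is an antiviral programme that most cell types can switch on. Sensors of foreign nucleic acid induce interferons, interferons act through cell-surface receptors and Janus kinases, and a transcription factor complex that holds STAT2 and IRF9 then binds the interferon-stimulated response element and induces antiviral effectors.

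The promoters of 5 interferon-response genes with a positive interaction and of Pygm, a muscle gene with a positive interaction, are shown as examples of promoters that hold GAAANNGAAA and CAGCTG, whose shares among called and tested genes follow. These letters are the core of the interferon-stimulated response element and were searched on both strands. In the first 5 sequences capitals mark the matches to GAAANNGAAA or its reverse complement, and overlapping matches run together. In Pygm capitals mark CAGCTG, an E-box that MYOD can bind, which reads the same on both strands. Sequences are from RefSeq, build GRCm38.p6, and run 5′ to 3′ on the gene's strand from 250 bases before to 50 bases after a listed start of the gene. Where a gene had more than 1 listed promoter, the promoter with the most matches is shown. The Ifit3 window lies downstream of that gene's outermost start (34583119).
Ifit3 (chr19:34583279-34583578, plus strand): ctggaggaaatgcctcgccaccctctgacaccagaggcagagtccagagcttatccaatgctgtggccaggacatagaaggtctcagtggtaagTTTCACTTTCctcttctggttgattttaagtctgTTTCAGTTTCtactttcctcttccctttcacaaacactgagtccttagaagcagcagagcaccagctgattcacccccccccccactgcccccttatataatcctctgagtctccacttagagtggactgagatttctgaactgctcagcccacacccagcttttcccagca
Isg15 (chr4:156200769-156201068, minus strand): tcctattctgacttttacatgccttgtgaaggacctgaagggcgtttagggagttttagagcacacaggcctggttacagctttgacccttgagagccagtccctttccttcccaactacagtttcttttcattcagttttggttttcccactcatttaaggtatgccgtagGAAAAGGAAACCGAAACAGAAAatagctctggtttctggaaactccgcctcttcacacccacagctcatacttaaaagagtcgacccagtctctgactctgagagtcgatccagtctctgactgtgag
Irgm1 (chr11:48871371-48871670, minus strand): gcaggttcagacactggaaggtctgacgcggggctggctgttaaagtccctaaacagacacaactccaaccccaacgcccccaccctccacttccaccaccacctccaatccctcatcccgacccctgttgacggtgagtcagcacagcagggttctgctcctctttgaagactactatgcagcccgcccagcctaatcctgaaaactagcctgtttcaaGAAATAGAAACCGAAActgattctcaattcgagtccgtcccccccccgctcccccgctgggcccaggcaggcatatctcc
Bst2 (chr8:71537423-71537722, minus strand): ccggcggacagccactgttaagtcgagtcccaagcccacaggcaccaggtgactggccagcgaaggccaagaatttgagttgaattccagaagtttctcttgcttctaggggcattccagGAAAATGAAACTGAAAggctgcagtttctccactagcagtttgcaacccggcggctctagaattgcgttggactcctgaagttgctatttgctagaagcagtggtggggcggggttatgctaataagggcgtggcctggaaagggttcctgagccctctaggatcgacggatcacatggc
Stat2 (chr10:128270248-128270547, plus strand): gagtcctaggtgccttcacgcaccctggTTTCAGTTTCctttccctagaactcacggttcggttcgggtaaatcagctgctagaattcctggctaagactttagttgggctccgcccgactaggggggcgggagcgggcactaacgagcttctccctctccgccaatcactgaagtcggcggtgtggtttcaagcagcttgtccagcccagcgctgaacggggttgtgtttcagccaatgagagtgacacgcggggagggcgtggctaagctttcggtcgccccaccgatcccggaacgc
Pygm (chr19:6384158-6384457, plus strand): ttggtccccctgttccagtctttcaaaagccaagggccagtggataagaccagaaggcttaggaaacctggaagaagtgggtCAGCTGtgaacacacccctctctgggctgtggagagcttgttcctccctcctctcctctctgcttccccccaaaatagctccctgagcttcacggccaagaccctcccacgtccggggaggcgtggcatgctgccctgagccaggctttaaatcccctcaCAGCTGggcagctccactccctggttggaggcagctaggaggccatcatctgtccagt

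Of the 14972 genes tested, 11722 had a promoter in the RefSeq table, and 438 of these (3.74%) held GAAANNGAAA. A gene was counted as holding a motif if any of its listed promoters did. The motif stood in the promoters of 36 of 145 genes with a called positive interaction (24.8%) and of 2 of 15 with a called negative interaction (13.3%). Within the interferon response list it stood in 14 of 24 called promoters (58.3%) and in 4 of 10 that were not called (40%). Among the genes with a called positive interaction outside that list, 22 of 121 promoters held it (18.2%). CAGCTG stood in 2156 of the 11722 promoters (18.4%), in 36 of the 145 of the called positive genes (24.8%) in 4 of the 15 of the called negative genes (26.7%) and in 14 of 34 promoters of the sarcomere list (41.2%). The wider E-box form CANNTG, which includes CAGCTG, stood in 68.4% of all promoters, 67.6% of those of the called positive genes and 80% of those of the called negative genes. Letters of the MEF2 site stood in 3.75% of all promoters and 5.52% of those of the called positive genes. GAAANNGAAA was chosen after the called genes were seen, and a match describes the letters only.

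The targeted gene went against the genotype labels. Myod1 (chromosome 7, 46376474 to 46379092, GRCm38) stood at 3.72 and 4.06 CPM in WT-labelled GM, 3.18 and 1.7 in WT-labelled DM, 8.17 and 4.18 in knockout-labelled GM and 16 and 15 in knockout-labelled DM. The MYOD-/- labelled libraries were therefore the higher of the pair in both media, and the interaction of Myod1 was 2.01 ± 0.78, adjusted p = 0.338 (1.91, adjusted p = 0.0306, with limma on log2(TPM + 1)). Which bases of Myod1 were removed is not stated in the sources used here, and transcript counts would not reveal a small deletion. MUNC itself, listed as Gm45923 (chromosome 7, 46371403 to 46372492), stood at 1821 and 2225 CPM in WT-labelled GM, 2012 and 2669.7 in WT-labelled DM, 132 and 106 in knockout-labelled GM and 43 and 50.4 in knockout-labelled DM. MUNC was thus far lower in the MYOD-/- labelled lines, and what follows cannot be told apart from that difference in MUNC level. The lines are called WT-labelled and knockout-labelled below, and every direction follows the labels.

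The 8 MUNC libraries held 48.2 M to 108 M estimated counts each. Across genes, the 2 replicates of a group had correlations of 0.973 to 0.992 on log2 CPM (library-scaled counts, TMM). Even so, a chi-square test told the replicates of each group apart, with 155 to 587 per degree of freedom, so none is a copy of another. The first principal component of the 8 libraries (51% of the variance) separated the 4 DM from the 4 GM libraries, and the second (32%) separated the WT-labelled from the knockout-labelled libraries. On the third (6.99%), GM replicate 1 stood at 40.2 (WT-labelled) and 30.9 (knockout-labelled), and GM replicate 2 at 2.44 and -50. Transcripts of the splicing factor gene Zrsr1 made up 1.49% to 8.21% of the counts in replicate 2 and 0.00877% to 0.0344% in replicate 1. The myoblast marker Myf5 was present in all 8 libraries, at 84.7 and 97 CPM in WT-labelled GM, 57.6 and 63.1 in WT-labelled DM, 90.8 and 111 in knockout-labelled GM and 77 and 108 in knockout-labelled DM. Pax7, the satellite cell factor, was near 0 in each (0 and 0, 6 and 4, 1 and 0 and 3 and 3 counts in the same order of groups). Leukocyte markers were low or absent: Ptprc had 0 to 6 counts per library, Adgre1, Tyrobp and Cd3e had 0 in all 8, and none of the 9 leukocyte markers tested had a called interaction.

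Of the 14972 genes, 206 had an interaction past an adjusted p of 0.05 (1.38%), 185 positive (1.24%) and 21 negative (0.14%). DESeq2 called 370 positive and 122 negative. By edgeR the positive calls had a median interaction of 2.39 and the negative ones of -1.74, against 0.00 over all genes tested. The response itself was broad in both lines. DM changed 5956 genes in the WT-labelled lines (39.8%, 3075 up and 2881 down) and 6707 in the knockout-labelled lines (44.8%, 3651 up and 3056 down). With limma on log2(TPM + 1), the rises and falls were 4195 and 1921 in the WT-labelled and 5251 and 1977 in the knockout-labelled lines. Of the 185 positive genes, 85 rose in the knockout-labelled lines with no call in the WT-labelled lines, and 53 rose in both, more steeply in the knockout-labelled lines. Another 23 fell in the WT-labelled and rose in the knockout-labelled lines, 18 fell in the WT-labelled lines with no call in the others, and 6 fell in both. Of the 21 negative genes, 11 rose in the WT-labelled lines with no call in the others, 5 fell in the knockout-labelled lines with no call in the WT-labelled lines, and 4 rose in both. The last negative gene, Kcnq1, rose in the WT-labelled and fell in the knockout-labelled lines, but it had 0 counts in both WT-labelled GM libraries and is named here only because it completes the count.

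**Figure D1:**
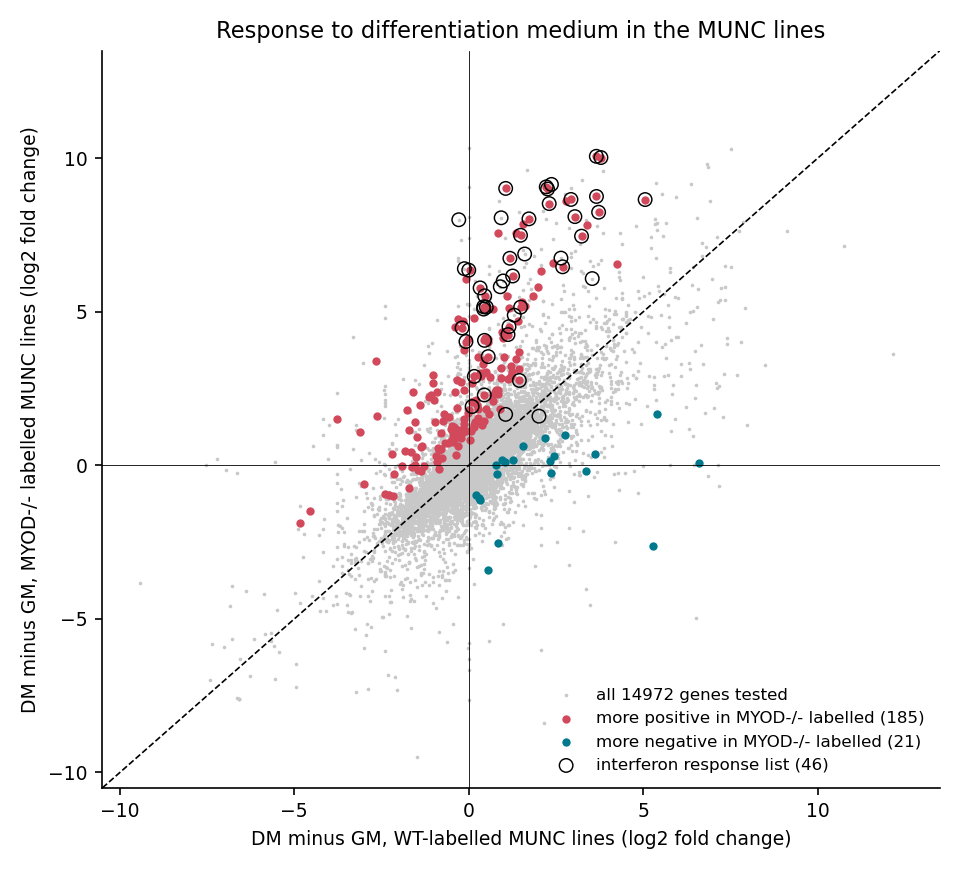
Each point is 1 of 14972 genes, with the log2 change from GM to DM in the WT-labelled MUNC lines on the horizontal axis and in the knockout-labelled (MYOD-/- labelled) MUNC lines on the vertical axis; red marks the 185 positive and blue-green the 21 negative interactions, open circles mark the 46 genes of the interferon response list, and the dashed line marks equal responses. The circled genes lie above the dashed line except Ifi27, and many lie where the WT-labelled change is small.

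How firmly the count stands depends on the libraries. It fell to 59 without WT-labelled DM replicate 2 and 62 without WT-labelled DM replicate 1, and ranged up to 279 without knockout-labelled GM replicate 1. Fits without the remaining libraries gave 97 (WT-labelled GM replicate 1), 112 (WT-labelled GM replicate 2), 118 (knockout-labelled GM replicate 2), 127 (knockout-labelled DM replicate 1) and 84 (knockout-labelled DM replicate 2). Of the 206 genes, 167 lost their call in at least 1 of these 8 fits and 39 kept it in each. In each of 16 alternative analyses 36 genes were called, all positive and 12 of them in the interferon response list. Where a gene described below with its levels lost its call without a single library, this is said beside it.

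The interferon response was the list with the most calls. Of the 46 genes of the interferon response list, 32 had a positive interaction and 0 a negative one, against 1.24% positive over all genes. The median was 4.82, against 0.00 over all genes tested. In the knockout-labelled lines all 46 rose (24.4% of all genes rose), with a median of 6.26. In the WT-labelled lines 21 of the 46 rose (20.5% of all genes rose) and 0 fell, with a median of 1.22. Of the 32 called genes, 18 rose in both lines and 14 rose in the knockout-labelled lines with no call in the others. The summed level of the list was 322 to 444 CPM in the 4 GM libraries, 940.5 and 967.4 CPM in WT-labelled DM, and 7977 and 13359 CPM in knockout-labelled DM. In 45 of the 46 genes both knockout-labelled DM libraries lay above both WT-labelled DM libraries, as they did in 35.1% of all genes tested. The exception was Ifi27, at 23.3 and 14.8 CPM in WT-labelled GM, 80 and 73.6 in WT-labelled DM, 16.5 and 7.63 in knockout-labelled GM and 46.8 and 26.4 in knockout-labelled DM (interaction -0.41 ± 0.61, adjusted p = 0.879). The number called was 17 to 30 when 1 MUNC library was left out, lowest without either WT-labelled DM library, and it was 19 without WT-labelled GM replicate 1, with 0 negative calls in each case. Of the 32, 20 lost their call in at least 1 of these fits, and the fit to the 8 MUNC libraries alone called 21 of the 46.

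Transcription factors of the pathway rose in knockout-labelled DM. Stat2 stood at 16.2 and 15.1 CPM in WT-labelled GM, 35.6 and 34.2 in WT-labelled DM, 12.3 and 6.94 in knockout-labelled GM and 179 and 262 in knockout-labelled DM (interaction 3.36 ± 0.44, adjusted p = 0.00397). Irf9 is the DNA-binding subunit of the complex that holds STAT2. Irf9 stood at 3.83 and 3.76 CPM in WT-labelled GM, 9.68 and 6.93 in WT-labelled DM, 3.76 and 4.11 in knockout-labelled GM and 73.7 and 76.7 in knockout-labelled DM (3.13 ± 0.25, adjusted p = 0.000289). For both genes the knockout-labelled DM libraries stood far above the other 6 MUNC libraries. Irf7, the factor that amplifies interferon production, had the largest interaction among genes that reached 5 CPM in a group, had more than 3 counts in each group and kept their call whichever library was left out. It stood at 0.776 and 0.361 CPM in WT-labelled GM, 2.16 and 1.68 in WT-labelled DM, 0.55 and 0.675 in knockout-labelled GM and 134 and 185 in knockout-labelled DM (6.30 ± 0.62, adjusted p = 0.000767), so it rose in both lines (WT-labelled 1.73 ± 0.43, knockout-labelled 8.03 ± 0.49) but to very different levels. Irf1, which also answers interferon, was at 30.9 and 28.4 CPM in WT-labelled GM, 66 and 57.4 in WT-labelled DM, 35 and 13.5 in knockout-labelled GM and 70.1 and 83.3 in knockout-labelled DM and did not have a called interaction (0.60 ± 0.57, adjusted p = 0.782).

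Sensors, receptors and ligands stand upstream of these factors. Dhx58 (LGP2) is a cytoplasmic RNA helicase that takes part in sensing viral RNA. Dhx58 stood at 0.38 and 0.542 CPM in WT-labelled GM, 1.18 and 1.03 in WT-labelled DM, 0.702 and 0.712 in knockout-labelled GM and 45.3 and 56.4 in knockout-labelled DM (4.91 ± 0.28, adjusted p = 2.92e-05). The related sensor Ifih1 (MDA5) was at 0.681 and 0.126 CPM in WT-labelled GM, 1.12 and 0.593 in WT-labelled DM, 3.15 and 0.913 in knockout-labelled GM and 100.2 and 163 in knockout-labelled DM, with an interaction of 5.02 ± 1.10, adjusted p = 0.0536. The interaction of Ifih1 passed with DESeq2 (adjusted p = 0.00146), limma on log2(TPM + 1) (0.000219), no filter (0.0163) and the replicate block (0.0186), and also without WT-labelled GM replicate 2 (0.0442) or knockout-labelled GM replicate 1 (0.0241). Of 13 genes that take part in inducing interferon, 3 had a called positive interaction (Ddx58, Tlr2 and Tlr3), and each lost its call in 6 or more of the 8 fits without 1 library. Of 7 receptors and kinases, 0 were called by edgeR and 1 had an unadjusted p under 0.05, against 1.38% called over all genes. Both lists were added after values were seen. The receptor chain Ifnar1 rose in both lines, at 71.4 and 68.8 CPM in WT-labelled GM, 110.3 and 107 in WT-labelled DM, 64 and 54.9 in knockout-labelled GM and 95.3 and 89.3 in knockout-labelled DM (interaction 0.00 ± 0.15). Transcripts of the ligands were scarce, so they are given as counts. Ifnb1 had 1 and 1 counts in WT-labelled GM, 0 and 2 in WT-labelled DM, 2 and 1 in knockout-labelled GM and 6 and 43 in knockout-labelled DM (interaction adjusted p = 0.536). Ifng, the type II interferon, had 0 and 0, 1 and 1, 0 and 0 and 87 and 62 counts in the same order. Both ligands were highest in knockout-labelled DM, and neither interaction passed by edgeR, although that of Ifng passed with limma on log2(TPM + 1) (1.58, adjusted p = 0.0237). Ifna4 had 3 and 8 counts in knockout-labelled DM and 0 in the other 6 MUNC libraries.

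The antiviral effectors showed the largest absolute levels. Ifit3 is an interferon-induced antiviral protein. Ifit3 stood at 0.966 and 0.722 CPM in WT-labelled GM, 11.2 and 12.2 in WT-labelled DM, 1.11 and 1.57 in knockout-labelled GM and 1022 and 1764 in knockout-labelled DM (6.23 ± 0.51, adjusted p = 0.000289). It rose in both lines, and it had the highest mean of the list in knockout-labelled DM. Bst2 (tetherin) holds budding virus at the cell surface. Bst2 stood at 2.3 and 0.614 CPM in WT-labelled GM, 4.89 and 3.39 in WT-labelled DM, 2.26 and 1.37 in knockout-labelled GM and 320.4 and 337 in knockout-labelled DM (6.01 ± 0.81, adjusted p = 0.00508). Rtp4 is an interferon-induced transmembrane protein. Rtp4 stood at 1.68 and 1.44 CPM in WT-labelled GM, 3.87 and 3.24 in WT-labelled DM, 1.5 and 0.584 in knockout-labelled GM and 101 and 125 in knockout-labelled DM (5.56 ± 0.57, adjusted p = 0.000879). Neither Bst2 nor Rtp4 passed 5 CPM in any WT-labelled MUNC library. In the empty vector lines Bst2 stood at 1162 and 1172 CPM in WT-labelled DM and 385 and 268 in knockout-labelled DM. Rtp4 stood there at 152 and 110 CPM and at 139 and 109 CPM in the same order. Eif2ak2 (PKR), the kinase that halts translation on double-stranded RNA, had a higher baseline, at 63.5 and 62.1 CPM in WT-labelled GM, 71.3 and 68.9 in WT-labelled DM, 52.3 and 46.9 in knockout-labelled GM and 281 and 458 in knockout-labelled DM (2.74 ± 0.28, adjusted p = 0.000883). Irgm1 is an immunity-related GTPase. Irgm1 stood at 37.5 and 33.7 CPM in WT-labelled GM, 45.9 and 51.4 in WT-labelled DM, 22.9 and 26.6 in knockout-labelled GM and 314 and 519 in knockout-labelled DM (3.62 ± 0.32, adjusted p = 0.00043). In the WT-labelled lines the changes of these genes from GM to DM were 0.16 ± 0.20 and 0.45 ± 0.22 on the log2 scale and did not pass the test (adjusted p = 0.558 and 0.13). Oas1b belongs to the oligoadenylate synthetase family. Oas1b stood at 0.491 and 0.235 CPM in WT-labelled GM, 0.353 and 0.297 in WT-labelled DM, 0.458 and 0.475 in knockout-labelled GM and 8.56 and 12.2 in knockout-labelled DM (4.67 ± 0.43, adjusted p = 0.000522), with no call in the WT-labelled lines (adjusted p = 0.675). Adar, which edits adenosine in double-stranded RNA, was already abundant, at 50.3 and 52.4 CPM in WT-labelled GM, 52.7 and 50.9 in WT-labelled DM, 51.8 and 57.1 in knockout-labelled GM and 172 and 205 in knockout-labelled DM (1.78 ± 0.19, adjusted p = 0.00136).

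Mx1, a dynamin-like antiviral GTPase, stayed low in the 8 MUNC libraries, at 0.269 and 0.343 CPM in WT-labelled GM, 0.373 and 0.23 in WT-labelled DM, 0.321 and 0.402 in knockout-labelled GM and 3.94 and 7.86 in knockout-labelled DM (4.11 ± 0.60, adjusted p = 0.00808). Its call was lost without WT-labelled DM replicate 2 (adjusted p = 0.0542). Several members belong to families of near-identical genes (Oas, Ifit, Gbp, Phf11 and H2 genes), and how reads were divided between them depends on the authors' assignment, so the values of single members are uncertain.

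**Figure D2:**
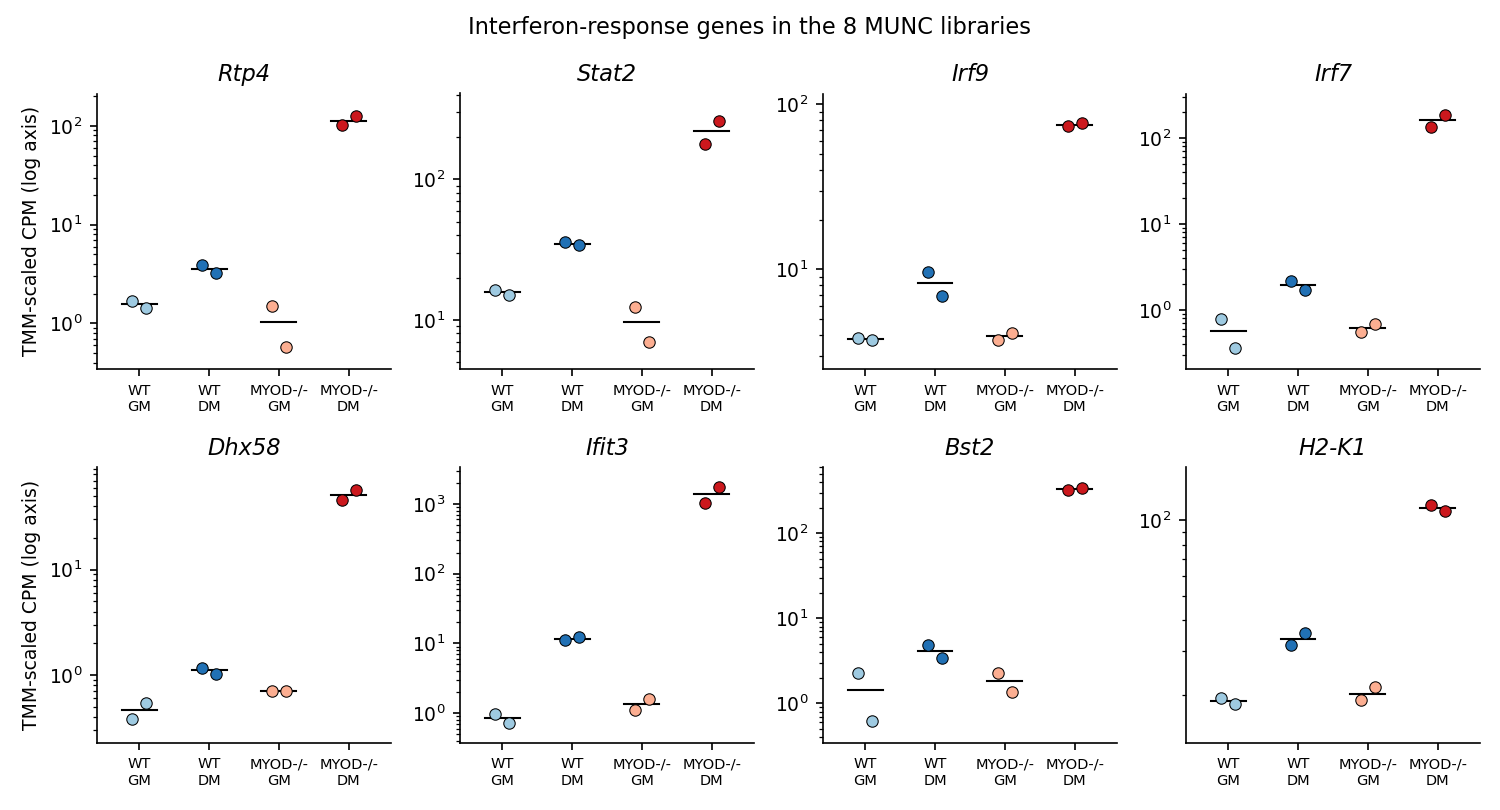
TMM-scaled CPM (log axis) of 8 interferon-response genes in the 4 MUNC groups, with a point for each of the 2 libraries of a group and a bar at their mean; MYOD-/- marks the knockout-labelled lines. In each panel the knockout-labelled DM libraries are the highest, and for Ifit3 they reach 1022 and 1764 CPM against 11.2 and 12.2 in WT-labelled DM.

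Several genes of the ubiquitin-like ISG15 system had a positive interaction. Isg15 encodes the modifier and stood at 0.538 and 0.271 CPM in WT-labelled GM, 4.91 and 5.92 in WT-labelled DM, 0.916 and 0.73 in knockout-labelled GM and 227 and 274 in knockout-labelled DM (4.52 ± 0.65, adjusted p = 0.00743), a call that was lost without WT-labelled GM replicate 1 (adjusted p = 0.0855). Ube2l6 encodes its conjugating enzyme and stood at 10.4 and 9.73 CPM in WT-labelled GM, 25.8 and 28.1 in WT-labelled DM, 8.58 and 7.27 in knockout-labelled GM and 169 and 239 in knockout-labelled DM (3.27 ± 0.28, adjusted p = 0.00035). Herc6 is the main mouse ISG15 ligase. Herc6 stood at 4.5 and 2.38 CPM in WT-labelled GM, 4.71 and 4.76 in WT-labelled DM, 2.4 and 1.52 in knockout-labelled GM and 58.9 and 122 in knockout-labelled DM (5.06 ± 0.62, adjusted p = 0.00331). All 3 had both knockout-labelled DM libraries above every other MUNC library. Usp18 encodes the enzyme that removes ISG15 and also damps the interferon receptor. Among the 8 MUNC libraries it was nearly silent outside knockout-labelled DM. Its counts were 6 and 1 in WT-labelled GM, 14 and 4 in WT-labelled DM, 15 and 18 in knockout-labelled GM and 7505 and 14591 in knockout-labelled DM (7.96 ± 1.5, adjusted p = 0.0263). In the empty vector lines it had 36053 and 33032 counts in WT-labelled DM and 7414 and 8574 in knockout-labelled DM. The Usp18 call was lost without WT-labelled GM replicate 1 or knockout-labelled DM replicate 2 (adjusted p between 0.0579 and 0.654).

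Antigen presentation genes, which interferons also induce, followed with smaller changes. Of the 18 genes of that list, 7 had a positive interaction and 0 a negative one, against 1.24% positive over all genes. The median was 1.46 (1.54 with the 2 genes at 3 or fewer counts in a group set at that floor). In the WT-labelled lines 13 of the 18 rose (20.5% of all genes rose) and in the knockout-labelled lines 16 (24.4% of all genes). All 7 called genes rose in both. H2-K1 is a classical class I heavy chain. H2-K1 stood at 19.5 and 18.4 CPM in WT-labelled GM, 31.6 and 35.5 in WT-labelled DM, 19 and 21.5 in knockout-labelled GM and 115 and 109 in knockout-labelled DM (1.64 ± 0.21, adjusted p = 0.00346). The nonclassical H2-T24, which is not in that list, stood at 1.35 and 1.17 CPM in WT-labelled GM, 1.94 and 1.8 in WT-labelled DM, 1.15 and 1.73 in knockout-labelled GM and 19.8 and 27 in knockout-labelled DM (3.46 ± 0.40, adjusted p = 0.00224). Its change in the WT-labelled lines was not called (0.57 ± 0.28, adjusted p = 0.137). B2m encodes beta-2 microglobulin, the light chain. B2m stood at 128 and 113 CPM in WT-labelled GM, 303 and 244 in WT-labelled DM, 120.3 and 119.6 in knockout-labelled GM and 815 and 899 in knockout-labelled DM (1.66 ± 0.31, adjusted p = 0.027), and its call was lost in each of the 8 fits that left out 1 library (adjusted p between 0.0532 and 0.143). The list had 1 to 6 positive calls when 1 MUNC library was left out, the lowest number without WT-labelled DM replicate 1.

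Some genes outside the lists that interferons are known to induce had the same pattern, and they are named because they kept their call in each alternative analysis. Cmtr1 is an mRNA cap methyltransferase. Cmtr1 stood at 96.8 and 97.2 CPM in WT-labelled GM, 108 and 112 in WT-labelled DM, 86.8 and 83.7 in knockout-labelled GM and 215 and 238 in knockout-labelled DM (1.23 ± 0.16, adjusted p = 0.00422). Tor3a is a torsin ATPase. Tor3a stood at 33.1 and 32.9 CPM in WT-labelled GM, 63.8 and 65.7 in WT-labelled DM, 27.8 and 23.8 in knockout-labelled GM and 392 and 603 in knockout-labelled DM (3.30 ± 0.28, adjusted p = 0.00035). Tdrd7 is a tudor-domain protein. Tdrd7 stood at 47.3 and 48.8 CPM in WT-labelled GM, 52.7 and 54.2 in WT-labelled DM, 49 and 42.9 in knockout-labelled GM and 175 and 216 in knockout-labelled DM (1.93 ± 0.20, adjusted p = 0.000845). Tor3a rose in both lines (WT-labelled 0.97 ± 0.20, adjusted p = 0.00269), whereas Cmtr1 and Tdrd7 had no call in the WT-labelled lines (adjusted p = 0.236 and 0.404). Helz2 was at 23.2 and 24.4 CPM in WT-labelled GM, 30.8 and 32.2 in WT-labelled DM, 18.1 and 21.9 in knockout-labelled GM and 133 and 185 in knockout-labelled DM (2.59 ± 0.32, adjusted p = 0.00346), and Phf11a at 0.143 and 0.144 CPM in WT-labelled GM, 0.157 and 0.163 in WT-labelled DM, 0.0764 and 0.146 in knockout-labelled GM and 2.52 and 3.67 in knockout-labelled DM (4.64 ± 0.47, adjusted p = 0.000845). Phf11a remained below 4 CPM in every MUNC library.

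Muscle genes formed the next group, with fewer calls. Of the 43 sarcomere genes tested, 7 had a positive interaction (Myl4, Tmod1, Xirp2, Tpm2, Mylpf, Tnnc1 and Tpm3) and 0 a negative one, against 1.24% positive over all genes, with a median of 1.52. Of the 7, 6 lost their call without at least 1 library. With the 9 genes at 3 or fewer counts in a group set at that floor, the median was 1.71. DM raised 27 and lowered 2 of the 43 in the WT-labelled lines (median 3.15), and raised 33 and lowered 0 in the knockout-labelled lines (4.44). Over all genes 20.5% rose and 19.2% fell in the WT-labelled lines, and 24.4% rose and 20.4% fell in the knockout-labelled lines. The summed level of the list was 1451 to 2588 CPM in the GM libraries, 1790.2 and 1796 CPM in WT-labelled DM, and 4541 and 4523 CPM in knockout-labelled DM. The number of positive calls fell to 1 without WT-labelled DM replicate 2, 2 without WT-labelled GM replicate 1, 3 without WT-labelled GM replicate 2 or knockout-labelled DM replicate 1, and 4 without knockout-labelled DM replicate 2. It was 1 in the fit to the 8 MUNC libraries alone and 10 with DESeq2, while limma on log2(TPM + 1) gave 23 positive and 1 negative. The median ranged from 0.638 without WT-labelled GM replicate 1 to 2.53 without knockout-labelled GM replicate 1, and was 0.918 without WT-labelled DM replicate 2 and 0.926 without knockout-labelled DM replicate 1.

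Myl4 is the embryonic and atrial essential myosin light chain. Myl4 stood at 1.19 and 1.05 CPM in WT-labelled GM, 1.73 and 1.28 in WT-labelled DM, 2.12 and 1.75 in knockout-labelled GM and 23.5 and 15.1 in knockout-labelled DM (2.89 ± 0.38, adjusted p = 0.00422). It rose in the knockout-labelled lines (3.31 ± 0.28, adjusted p = 1.15e-05) and had no call in the WT-labelled lines (0.42 ± 0.27, adjusted p = 0.247). Tmod1 caps the slow-growing end of actin filaments. Tmod1 stood at 0.19 and 0.144 CPM in WT-labelled GM, 0.667 and 0.565 in WT-labelled DM, 1.7 and 0.821 in knockout-labelled GM and 64.4 and 51.4 in knockout-labelled DM (3.67 ± 0.56, adjusted p = 0.00987), and its call was lost without WT-labelled GM replicate 1 or WT-labelled DM replicate 2 (adjusted p between 0.0542 and 0.106). Mylpf, the fast regulatory light chain, rose steeply in both lines, at 1.03 and 0.722 CPM in WT-labelled GM, 21.8 and 11.8 in WT-labelled DM, 1.08 and 0.767 in knockout-labelled GM and 96.4 and 78.8 in knockout-labelled DM (2.31 ± 0.47, adjusted p = 0.0366). The Mylpf call was lost without WT-labelled GM replicate 1, WT-labelled GM replicate 2, WT-labelled DM replicate 2, knockout-labelled GM replicate 2, knockout-labelled DM replicate 1 or knockout-labelled DM replicate 2 (adjusted p between 0.06 and 0.179). Several genes with large rises had no called interaction. Myh3, the embryonic myosin heavy chain, stood at 0.158 and 0.0542 CPM in WT-labelled GM, 33.2 and 7.9 in WT-labelled DM, 0.26 and 0.183 in knockout-labelled GM and 314 and 260.1 in knockout-labelled DM. Its interaction of 2.79 ± 1.22 did not pass by edgeR (adjusted p = 0.418), but it passed without WT-labelled DM replicate 1 (4.14, adjusted p = 0.0274) and with limma on log2(TPM + 1) (3.90, adjusted p = 0.00354). Myog is the factor at the start of terminal differentiation. Myog stood at 0.111 and 0.0361 CPM in WT-labelled GM, 7.91 and 8.14 in WT-labelled DM, 0.473 and 0.0365 in knockout-labelled GM and 33.7 and 27 in knockout-labelled DM. It rose by 6.70 ± 0.75 in the WT-labelled and 6.83 ± 0.68 in the knockout-labelled lines, with an interaction of 0.13 ± 1.33, adjusted p = 0.99. With limma the interaction of Myog passed (1.66, adjusted p = 0.0124). By edgeR 0 of the 20 myogenic regulators and 0 of the 29 fusion genes had a called interaction, against 1.38% of all genes, and 2 and 8 had an unadjusted p under 0.05. DESeq2 called 0 and 2 of them, and limma 3 and 2.

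Outside the sarcomere, 3 genes of excitable or muscle cells kept their call in each alternative. Pygm is the muscle glycogen phosphorylase whose promoter is shown above. Pygm stood at 0.412 and 0.488 CPM in WT-labelled GM, 1.18 and 0.631 in WT-labelled DM, 0.473 and 0.548 in knockout-labelled GM and 9.05 and 8.98 in knockout-labelled DM (3.16 ± 0.44, adjusted p = 0.00672). Agrn is the proteoglycan that organises the neuromuscular junction. Agrn stood at 21.3 and 25.7 CPM in WT-labelled GM, 55.6 and 65 in WT-labelled DM, 21.5 and 20.4 in knockout-labelled GM and 246 and 218 in knockout-labelled DM (2.11 ± 0.24, adjusted p = 0.00185). Kcnma1 is the pore-forming subunit of the large-conductance calcium-activated potassium channel. Kcnma1 stood at 0.269 and 0.235 CPM in WT-labelled GM, 0.628 and 0.899 in WT-labelled DM, 0.29 and 0.237 in knockout-labelled GM and 11.2 and 8.29 in knockout-labelled DM (3.58 ± 0.51, adjusted p = 0.00743). All 3 rose in both lines (WT-labelled log2 changes 0.98 ± 0.32, 1.36 ± 0.17 and 1.61 ± 0.36), and in the GM libraries the lines lay close together. Arhgap26 is a GTPase-activating protein. Arhgap26 stood at 1.88 and 2.13 CPM in WT-labelled GM, 1.77 and 1.89 in WT-labelled DM, 3.33 and 3.12 in knockout-labelled GM and 19.6 and 15.4 in knockout-labelled DM (2.57 ± 0.34, adjusted p = 0.0042), and Tctn3, a protein of the ciliary transition zone, at 11.1 and 9.84 CPM in WT-labelled GM, 11.6 and 12.6 in WT-labelled DM, 12.8 and 9.91 in knockout-labelled GM and 54.4 and 44.2 in knockout-labelled DM (1.91 ± 0.24, adjusted p = 0.00335). Both had no call in the WT-labelled lines.

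Another set of positive interactions came from genes that fell in the WT-labelled lines. Siglecg is a sialic-acid-binding receptor best known from B cells. Siglecg stood at 5.91 and 7.71 CPM in WT-labelled GM, 0.275 and 0.651 in WT-labelled DM, 47.1 and 38.9 in knockout-labelled GM and 133 and 109 in knockout-labelled DM (5.27 ± 0.39, adjusted p = 0.000192). It fell in the WT-labelled lines (-3.78 ± 0.30, adjusted p = 1.66e-05) and rose in the knockout-labelled lines (1.5 ± 0.25, adjusted p = 0.000657), and it already differed in GM. Krt80 is a keratin. Krt80 stood at 34.3 and 33.7 CPM in WT-labelled GM, 3.22 and 5.22 in WT-labelled DM, 109 and 128 in knockout-labelled GM and 83.5 and 72.5 in knockout-labelled DM (2.40 ± 0.34, adjusted p = 0.00743). Anxa3 is a calcium-dependent membrane-binding protein. Anxa3 stood at 463 and 589 CPM in WT-labelled GM, 122 and 157 in WT-labelled DM, 713 and 622 in knockout-labelled GM and 647 and 663 in knockout-labelled DM (1.89 ± 0.23, adjusted p = 0.00321), so its 2 WT-labelled DM libraries lay below the other 6. Rras2 is a Ras-family GTPase. Rras2 stood at 104 and 114 CPM in WT-labelled GM, 33.4 and 36.7 in WT-labelled DM, 144 and 119 in knockout-labelled GM and 131 and 125 in knockout-labelled DM (1.60 ± 0.20, adjusted p = 0.00346). Noct encodes nocturnin and follows the circadian clock in many tissues. Noct stood at 19.9 and 23.3 CPM in WT-labelled GM, 5.04 and 4.73 in WT-labelled DM, 34.6 and 39 in knockout-labelled GM and 28.4 and 32.7 in knockout-labelled DM (1.88 ± 0.25, adjusted p = 0.00462). For Krt80, Anxa3, Rras2 and Noct the change in the knockout-labelled lines was not called (adjusted p = 0.0598, 0.906, 0.852 and 0.236), while each fell in the WT-labelled lines. Mcf2l, a guanine nucleotide exchange factor, fell from 6.86 and 5.65 to 3.75 and 3.43 CPM in the WT-labelled lines and rose from 13.7 and 12.7 to 31.8 and 23 in the knockout-labelled lines (1.86 ± 0.26, adjusted p = 0.00672). Tmcc3 did the same, from 18.8 and 22.6 to 8.48 and 8.01 and from 36.8 and 47.8 to 72 and 58.9 CPM (1.96 ± 0.28, adjusted p = 0.00743).

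The smooth-muscle actin-binding gene Tagln also moved in opposite directions, at 33.6 and 52.6 CPM in WT-labelled GM, 18.8 and 11.1 in WT-labelled DM, 42.2 and 18.5 in knockout-labelled GM and 94.8 and 65.6 in knockout-labelled DM (2.93 ± 0.53, adjusted p = 0.0225), although its GM replicates differed by more than 1.5 times in both lines. The Tagln call was lost without WT-labelled GM replicate 2, WT-labelled DM replicate 1, WT-labelled DM replicate 2 or knockout-labelled DM replicate 1 (adjusted p between 0.0517 and 0.115). Cell-cycle genes fell in both lines. Of 55 tested, 54 fell in the WT-labelled lines (19.2% of all genes fell) and 53 in the knockout-labelled lines (20.4% of all genes). Among the 55, 1, the replication helicase gene Mcm6, had a called interaction (0.98 ± 0.18, adjusted p = 0.0234), a share near the 1.38% of all genes. Mcm6 fell from 282 and 253 to 77.4 and 85.8 CPM and from 226 and 184 to 125 and 123 CPM, and its call was lost without WT-labelled GM replicate 1, WT-labelled GM replicate 2, WT-labelled DM replicate 1, WT-labelled DM replicate 2, knockout-labelled GM replicate 2, knockout-labelled DM replicate 1 or knockout-labelled DM replicate 2 (adjusted p between 0.0508 and 0.135).

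**Figure D3:**
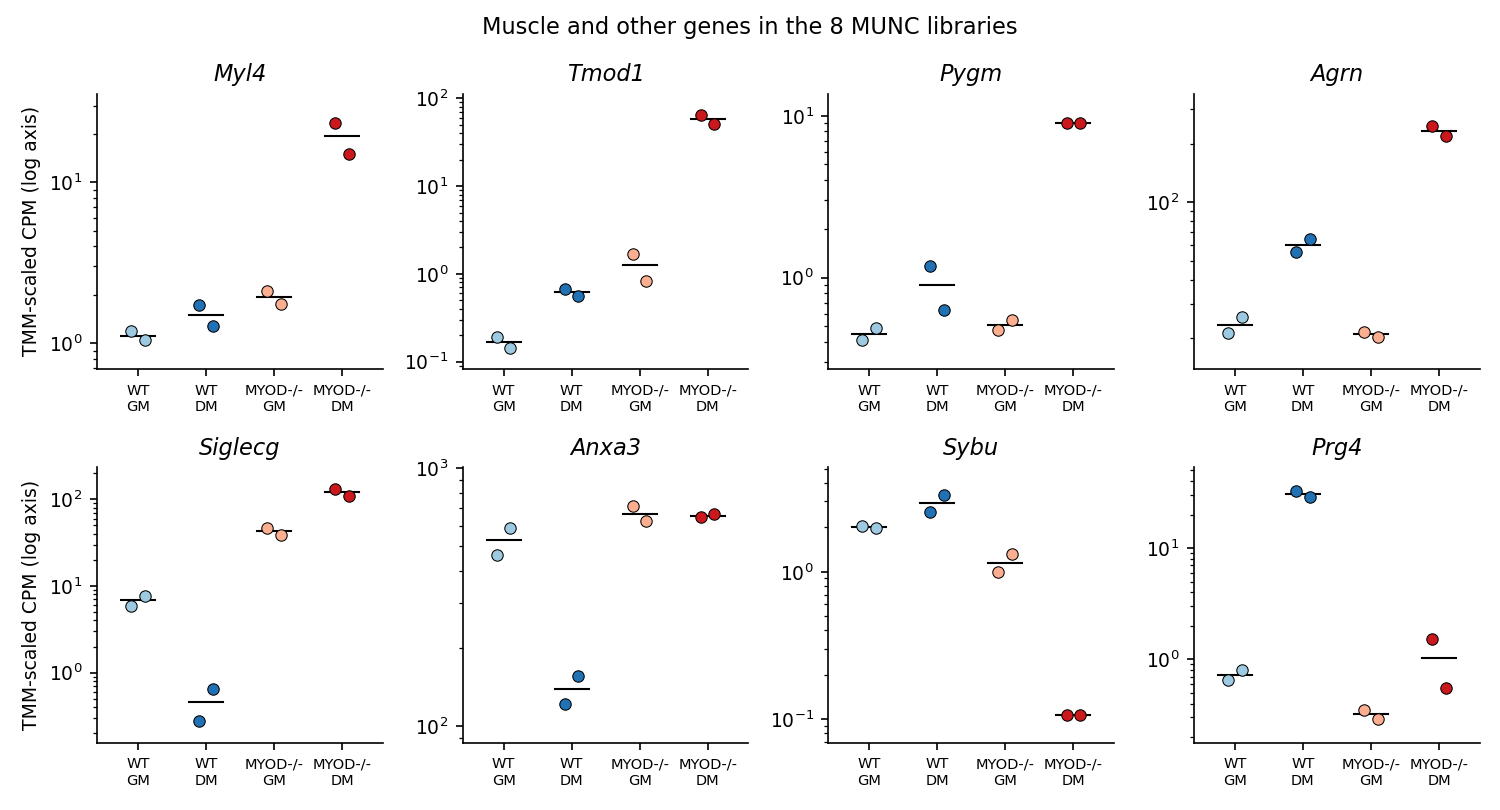
TMM-scaled CPM (log axis) of muscle genes (Myl4, Tmod1, Pygm, Agrn), of genes that fell in the WT-labelled lines (Siglecg, Anxa3) and of genes with a negative interaction (Sybu, Prg4), with a point for each library and a bar at the group mean; MYOD-/- marks the knockout-labelled lines. The 4 muscle genes are highest in knockout-labelled DM, Anxa3 is lowest in WT-labelled DM, and Prg4 is highest in WT-labelled DM at 32.6 and 28.7 CPM.

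Negative interactions were few. Sybu (syntabulin), a linker of cargo to kinesin, was the 1 negative gene called in each of the 15 alternative analyses that tested it. It stays below 5 CPM and was not tested under the filter of 5 CPM. It stood at 2.06 and 1.97 CPM in WT-labelled GM, 2.53 and 3.33 in WT-labelled DM, 0.993 and 1.31 in knockout-labelled GM and 0.107 and 0.107 in knockout-labelled DM (-3.95 ± 0.52, adjusted p = 0.00422), which is 7 and 9 counts in knockout-labelled DM. Prg4 (lubricin), a lubricating glycoprotein, rose far more in the WT-labelled lines, at 0.649 and 0.795 CPM in WT-labelled GM, 32.6 and 28.7 in WT-labelled DM, 0.351 and 0.292 in knockout-labelled GM and 1.52 and 0.557 in knockout-labelled DM (-3.74 ± 0.63, adjusted p = 0.0166). The Prg4 call was lost without WT-labelled GM replicate 1, WT-labelled DM replicate 1 or WT-labelled DM replicate 2 (adjusted p between 0.06 and 0.0686). Glul makes glutamine. Glul stood at 29.5 and 30.3 CPM in WT-labelled GM, 134 and 136 in WT-labelled DM, 30.1 and 28.7 in knockout-labelled GM and 64.2 and 44.4 in knockout-labelled DM (-1.29 ± 0.24, adjusted p = 0.0244), and its call was lost without WT-labelled GM replicate 1, WT-labelled GM replicate 2, WT-labelled DM replicate 1, WT-labelled DM replicate 2, knockout-labelled GM replicate 2 or knockout-labelled DM replicate 2 (adjusted p between 0.0671 and 0.108). Shc2 is a signalling adaptor. Shc2 stood at 14.9 and 16.6 CPM in WT-labelled GM, 18.4 and 20.4 in WT-labelled DM, 3.25 and 2.74 in knockout-labelled GM and 1.3 and 1.55 in knockout-labelled DM (-1.36 ± 0.21, adjusted p = 0.00987), and its call was lost without WT-labelled GM replicate 1 or WT-labelled DM replicate 2 (adjusted p between 0.0541 and 0.0662). Shc2 was already lower in knockout-labelled GM and fell further there. Among the 21 negative genes 0 belonged to the interferon, antigen presentation or cytokine lists. These lists hold only 46, 18 and 30 of the 14972 genes tested, so few or none would be expected by share.

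In the other gene lists the calls are read against the 1.38% of all genes, which a single call among these small lists exceeds. Of 28 basement membrane and integrin genes 2 were called positive (Agrn and Itga5), as were 2 of 17 satellite and reserve cell markers (Nes and Sdc3) and 2 of 15 epithelial and neural markers (Gap43 and Tubb3). The medians of these lists were 0.04, -0.29 and -0.54, and 15 of 28, 7 of 17 and 7 of 15 genes had a positive sign, called or not. With genes at 3 or fewer counts set at that floor, the epithelial and neural median was 0.08. Each of the following lists had 1 positive call: excitation-contraction and neuromuscular junction (Agrn, of 28), muscle metabolism (Pygm, of 24), TGF-beta and smooth muscle (Tagln, of 29), fibroblast-like markers (Cd44, of 14), adipogenic markers (Ebf1, of 16), cell cycle exit (Gadd45g, of 14), and immediate early and heat shock (Hsp90aa1, of 28). Their medians were 0.07, -0.28, 0.40, -0.23, -0.10, 0.13 and -0.20 in that order. The genes with a positive sign numbered 15, 10, 20, 6, 7, 9 and 11. By edgeR 0 calls in either direction were made among 45 interstitial collagen and matrix genes, 30 cytokines and chemokines, 30 unfolded protein response genes, 26 p53 targets, 26 sterol genes, 37 Wnt and Hox genes, 15 imprinted genes, 7 endothelial markers or 10 osteogenic and chondrogenic markers. In each of these lists 1 to 8 genes had an unadjusted p under 0.05. Besides Agrn and Pygm, each called gene named in these lists lost its call without at least 1 library. In all, 147 of the 206 genes were in no list.

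**Figure D4:**
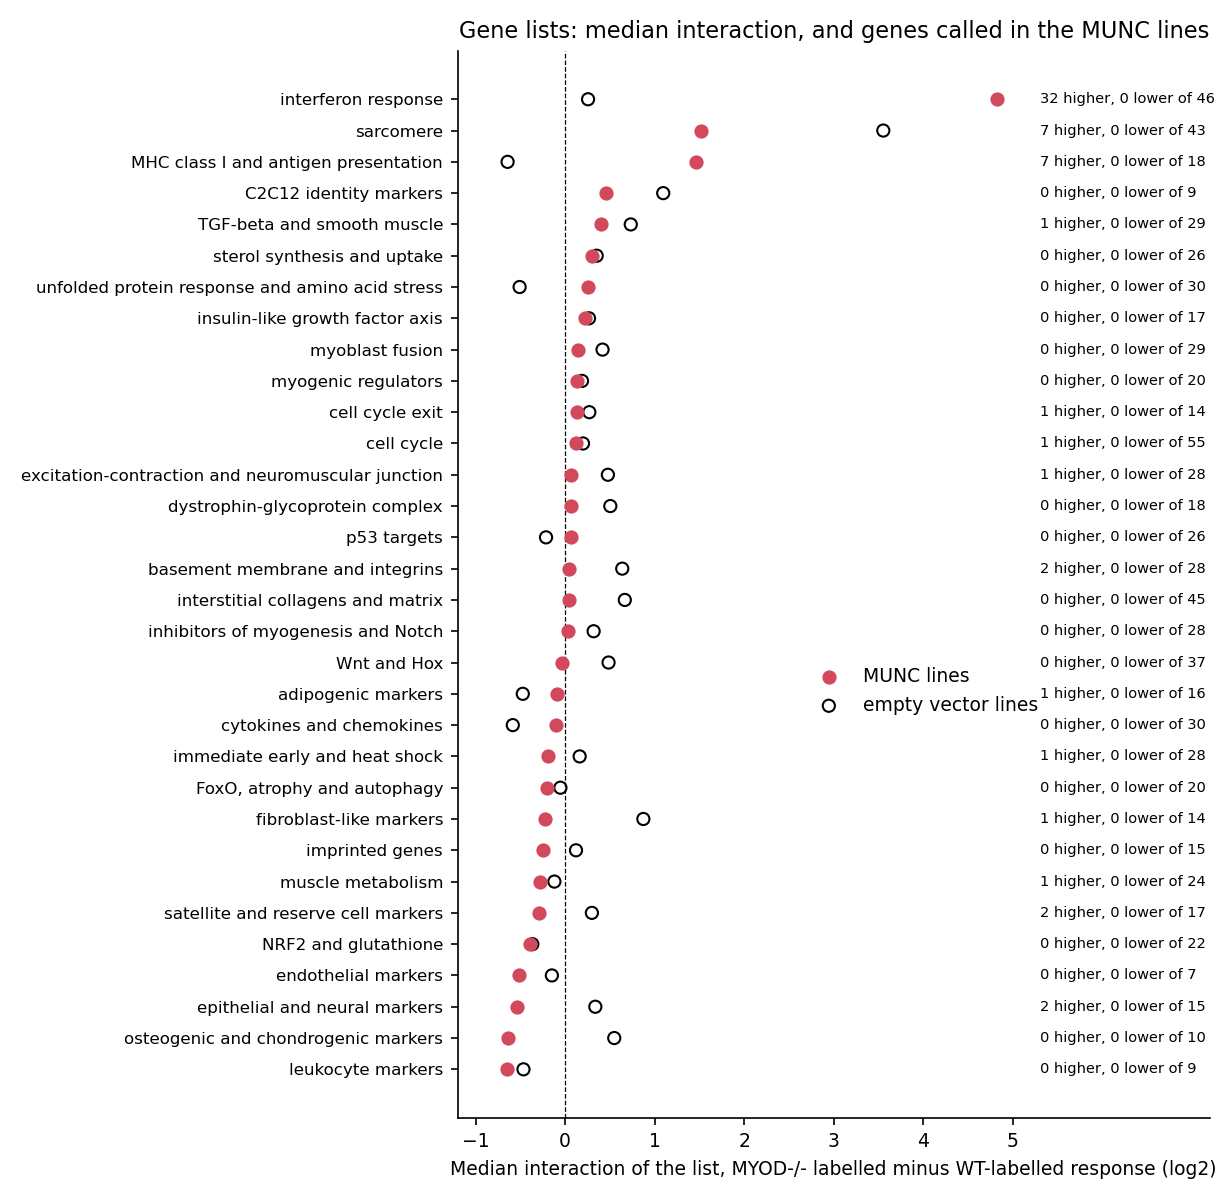
Median interaction of each gene list in the MUNC lines (red) and in the empty vector lines (open), on a log2 scale, with the number of genes called in the MUNC lines written at the right and a dashed line at the median of all genes tested. The interferon response list stands at 4.82 in the MUNC lines and 0.26 in the empty vector lines, and the sarcomere list at 1.52 and 3.55.

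The same interaction in the empty vector lines, which share no library with the MUNC lines, gave 387 calls (2.58%), 249 positive (1.66%) and 138 negative (0.922%). DESeq2 gave 490 positive and 463 negative, and the fit without WT-labelled EV DM replicate 1 gave 152 and 181. Without each of the other 7 EV libraries the count was 57 to 251, lowest without knockout-labelled EV DM replicate 1. The lists of calls shared 54 genes, 26.2% of the MUNC list and 14% of the EV list, and 49 of these had the same sign in both. Among the shared genes were Myl4 (EV interaction 3.87 ± 0.39), Tmod1 (4.13 ± 0.53), Pygm (5.4 ± 0.49), Mylpf (5.38 ± 0.50), Kcnma1 (4.49 ± 0.64), Tagln (5.52 ± 0.56) and Siglecg (2.62 ± 0.35). The sarcomere list had 13 positive calls in the EV lines and a median of 3.55. In the interferon response list, by contrast, the EV interaction was called positive for 2 of 46 genes and negative for 1, with a median of 0.26.

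The difference between the interactions, MUNC minus EV, was tested directly. It passed for 76 genes (0.508%), 57 positive and 19 negative, and for 28 to 93 when 1 library was left out, lowest without knockout-labelled EV DM replicate 2. Of the 206 genes called in the MUNC lines, 44 (21.4%) had a called difference, 41 positive and 3 negative. These genes were selected by the MUNC interaction, which is itself part of the difference. Their share and the sign of their differences are therefore partly set by the selection. In the interferon response list 15 of 46 were called positive and 0 negative. Irf7 stood at 1.47 and 0.515 CPM in WT-labelled EV GM, 534 and 599 in WT-labelled EV DM, 0.616 and 0.376 in knockout-labelled EV GM and 186 and 180.4 in knockout-labelled EV DM. The EV interaction of Irf7 was -0.60 ± 0.61, adjusted p = 0.678, and the difference was 6.90 ± 0.88, adjusted p = 0.00681. Dhx58 stood at 1.07 and 1.37, 147 and 153, 0.535 and 0.652 and 64.4 and 66.9 CPM in the same order (difference 5.07 ± 0.39, adjusted p = 0.000585). In the EV lines both genes were thus high in DM whatever the genotype label, and WT-labelled MUNC DM was the 1 DM group of the series in which they stayed low. Ifng in the EV lines had 2 and 0 counts in WT-labelled DM and 61 and 25 in knockout-labelled DM.

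Called differences were ranked among genes with at least 5 CPM in a group and more than 3 counts in each of the 8 groups. This floor left out Ifi205, whose called difference was larger than those that follow. The largest positive differences under it were those of Phf11d (MUNC interaction 6.70 ± 0.85, EV -2.34 ± 0.82), Gm4951 (6.32 ± 1.0 and -2.33 ± 0.93), Oas3 (4.66 ± 0.86 and -3.25 ± 0.90), Mx1 (4.11 ± 0.60 and -3.40 ± 0.62) and Gm12250 (4.40 ± 0.78 and -2.62 ± 0.79). All 5 are interferon-induced genes or members of such families. In the MUNC lines, the call of Phf11d was lost without WT-labelled GM replicate 1 (adjusted p = 0.0953), and that of Gm4951 without WT-labelled GM replicate 1 or WT-labelled DM replicate 2 (adjusted p between 0.06 and 0.351). That of Oas3 was lost without WT-labelled GM replicate 1, WT-labelled GM replicate 2, WT-labelled DM replicate 1 or WT-labelled DM replicate 2 (adjusted p between 0.0544 and 0.174). That of Gm12250 was lost without WT-labelled GM replicate 1, WT-labelled GM replicate 2, WT-labelled DM replicate 1 or WT-labelled DM replicate 2 (adjusted p between 0.0575 and 0.141). The largest negative differences were those of Prg4 (MUNC -3.74 ± 0.63, EV 4.23 ± 0.74), Gpr153 (-1.0 ± 0.52 and 5.19 ± 0.98), Ryr1, the calcium release channel of muscle (-1.21 ± 0.55 and 2.92 ± 0.51), Ptgis (-1.03 ± 0.51 and 2.92 ± 0.49) and Chst15 (-0.29 ± 0.28 and 3.03 ± 0.28). For Myl4, Tmod1 and Kcnma1 the difference between vectors was not called (adjusted p = 0.574, 0.912 and 0.798).

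**Figure D5:**
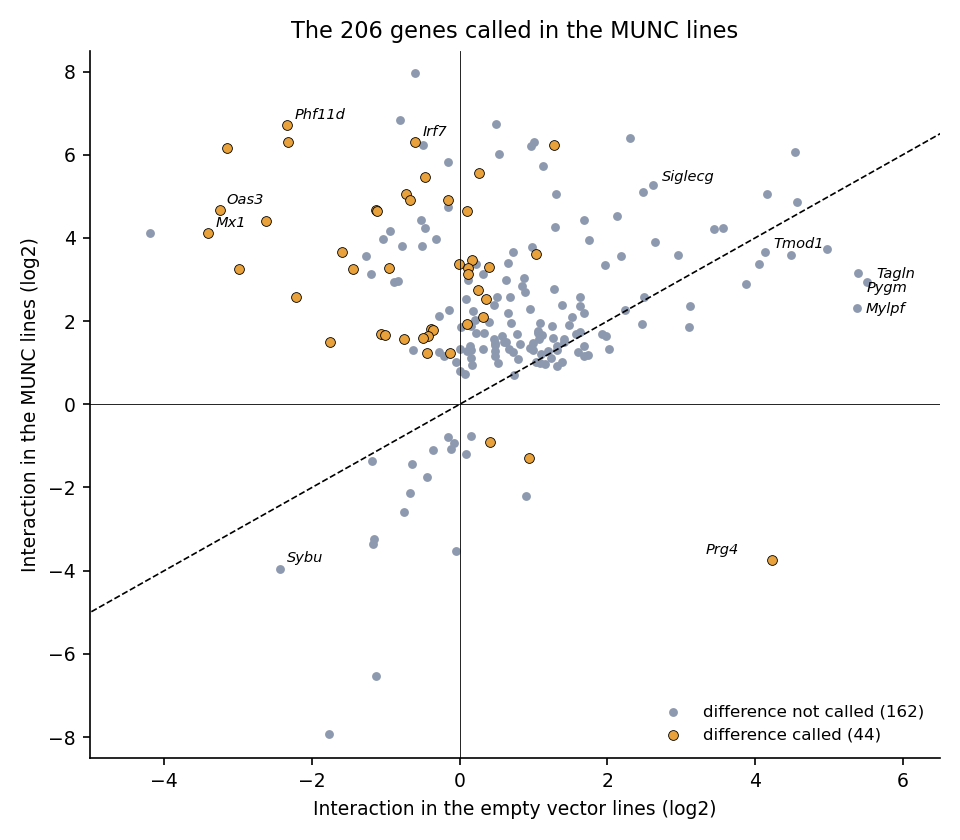
The 206 genes called in the MUNC lines, with their interaction in the empty vector lines on the horizontal axis and in the MUNC lines on the vertical axis (log2); orange marks the 44 genes whose difference between vectors was called, grey the other 162, and the dashed line marks equal interactions. Irf7, Oas3 and Phf11d lie far above the dashed line, the muscle genes Tmod1, Pygm and Mylpf lie near or below it, and Prg4 lies far below it. The genes were selected by the value on the vertical axis, which partly sets their distance from the line.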

How the data were processed

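Poly(A) RNA of 16 C2C12 libraries was sequenced. The submitters' processing notes name bcl2fastq, kallisto and mm10, with no versions, and no source used here states the strand setting. The authors deposited, per the file headers, estimated counts and TPM for each of 35818 transcripts. Transcripts were assigned to 24497 genes through RefSeq (GRCm38.p6) or GENCODE M21, and 138 without a symbol (0.28% to 0.941% of counts) were left out. Estimated counts were summed per gene and rounded. edgeR 4.0.16 (R 4.3.3; TMM, filterByExpr) fitted 1 mean per group to all 16 libraries (14972 genes, 8 residual degrees of freedom) and tested contrasts with glmQLFTest (quasi-likelihood), adjusting p over all genes by Benjamini-Hochberg (threshold 0.05). Levels are TMM-scaled CPM of each library, and changes are log2 ± an approximate SE. That SE was derived as the absolute log2 change divided by the square root of the F statistic of its test. The fit was tested on simulated counts in which 200 genes had a known 2-fold or 4-fold interaction. It recovered 23% of the 2-fold and 87% of the 4-fold interactions, and 5.17% of its calls were false.

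Gene members and lists were chosen with earlier results of these data known. The naming rule took a fixed panel, the 12 largest interactions each way (called without any 1 library where possible, at least 5 CPM in a group and more than 3 counts in each group), up to 4 called members of each list, and the 5 largest called vector differences each way. The same floor of CPM and counts was applied to the vector differences, over all 8 groups. The text gives examples. Receptor, kinase and ligand lists and the GAAANNGAAA search were added after seeing the data. Alternatives were DESeq2 1.42.0, its size factors in edgeR, no filter, a filter of 5 CPM in 2 libraries, limma 3.58.1 on log2(TPM + 1), a replicate block, the 8 MUNC libraries alone, leaving out Zrsr1, an adjusted p of 0.01 and leaving out each library. Replicate numbers are not stated to mark a shared culture or day, and deviations of same-numbered MUNC libraries correlated at -0.0126 to 0.54 across groups, so the block is an alternative only.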

Additional observations from a re-analysis of the deposited data

Results flagged for a closer look

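Responses to differentiation medium that differed between the labelled genotypes by the interaction test were seen in the MUNC lines for 206 genes, which are the subject of the report. A test of the difference between vectors singled out 76 genes whose MUNC interaction differed from the empty vector interaction. Among those above the floor of CPM and counts, the largest positive differences (MUNC minus EV, log2) were 9.04 for Phf11d, 8.64 for Gm4951, 7.91 for Oas3, 7.52 for Mx1 and 7.02 for Gm12250. The largest negative ones were -7.97 for Prg4, -6.20 for Gpr153, -4.13 for Ryr1, -3.96 for Ptgis and -3.33 for Chst15. In Chst15 the MUNC interaction of the main fit was small (-0.29 ± 0.28) and the EV interaction was 3.03 ± 0.28. In the main fit that difference therefore rests mainly on the EV lines. With limma on log2(TPM + 1), however, the MUNC interaction of Chst15 was called negative (adjusted p = 0.017). That of Gpr153 was also called negative by limma (adjusted p = 0.0021), though not in the main fit.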

How the results depend on the processing

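The MUNC interaction gave 206 calls as reported, 492 with DESeq2, 563 with limma on log2(TPM + 1), 81 from the 8 MUNC libraries alone and 61 at an adjusted p of 0.01; of the 206, DESeq2 called 205, limma 196 and the fit to 8 libraries 78. A replicate block, with the pairing taken from replicate numbers only, gave 388 calls that included all 206, and 898 (EV interaction) and 169 (MUNC minus EV). Without 1 library the counts were 59 to 279 (MUNC interaction), 57 to 333 (EV interaction) and 28 to 93 (MUNC minus EV). DESeq2 and limma gave 953 and 1046 EV interactions and 302 and 337 differences between vectors. At an adjusted p of 0.01 the differentiation counts were 3776 (WT-labelled) and 4432 (knockout-labelled). With limma on TPM the rises and falls were 4195 and 1921 (WT-labelled) and 5251 and 1977 (knockout-labelled). Other filters, scalings and leaving out Zrsr1 kept each count within 1.5 times. Directions turned only for genes with no called interaction in the main fit. When 1 library was left out these were Ifi27 (-0.90 to 0.26), Myog (-0.89 to 2.94) and Ifnar1 (-0.07 to 0.12). Ifnar1 also stood at -0.01 with DESeq2 or its size factors, -0.00 with no filter and -0.05 with the filter of 5 CPM. With limma on log2(TPM + 1) Ptgis (0.13) and Ryr1 (1.15) turned, and the turned interaction of Ryr1 was called there (adjusted p = 0.000153). The cause was not tested. With 2 libraries in a group, a gene without a call is not shown to respond equally in both lines.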
